A study of Mus musculus with 7 samples.

Results

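The genes described here are 10 components of bone morphogenetic protein (BMP) signalling, chosen by symbol: the ligands Bmp2, Bmp4, Bmp5, Bmp6, Bmp7 and Bmp3, the secreted antagonists Nog and Chrd, the decoy receptor Bambi and the inhibitory SMAD Smad6. Each matched exactly 1 of the 42687 gene identifiers in the count table, and all 10 passed the filter on low counts. RNA had been taken from cells of mouse femurs sorted for CD24 and CD29 on their surface, which the labels call bone skeletal stem cells. The C57BL/6 animals were 3 months old when they went on a control food with 10% fat (low fat diet, LFD) or a food with 60% fat (high fat diet, HFD), each given over 4 weeks. There were 4 LFD libraries (1 to 4) and 3 HFD libraries (2 to 4), and the comparison asks how expression differed between the diets.

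BMPs are secreted dimers of the transforming growth factor beta superfamily, first known for inducing ectopic cartilage and bone. They bring together type I and type II receptor kinases, which phosphorylate SMAD1, SMAD5 and SMAD9. These join SMAD4 and, in the nucleus, switch on targets such as the Id genes and the pathway's own inhibitors. In bone, BMP2 is needed for fracture repair, and noggin and chordin bind ligands outside the cell.

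Values are CPM, counts scaled by the TMM-adjusted library total (a total corrected for differences in composition). Total counts ran from 17391613 to 24681838 per library. Sorting genes were present, with Cd24a (CD24) at 774 to 4852 CPM and Itgb1 (CD29) at 368 to 497 CPM. Cd24a was highest in LFD 3 and lowest in HFD 2, which also had the highest and lowest share of erythroid markers (14.8% and 2.69% of counts). Which cells carried it was not tested. Counts of Xist were 257 to 526 per LFD library and 0 in all 3 HFD libraries, while 4 Y-linked genes summed to 1 to 5 and 2494 to 3405, so that diet and the sex read from these transcripts cannot be told apart below. LFD 3 stood apart in coverage: 35 genes had 0 counts there and at least 5 CPM in all 6 other libraries, against 13 such genes in LFD 2, 6 in LFD 1 and 0 in each of the remaining libraries.

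The ligand genes are relatives, and their sequences show whether reads of 50 bases could be told apart. The last 120 coding bases of Bmp2 and Bmp4, the closest relatives in the BMP2/4 branch, are shown before the stop codon (5′ to 3′, coding strand), with the 23 bases at which they differ in capitals.

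Bmp2: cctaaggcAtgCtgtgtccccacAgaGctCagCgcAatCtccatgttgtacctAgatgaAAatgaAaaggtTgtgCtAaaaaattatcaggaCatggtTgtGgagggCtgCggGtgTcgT

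Bmp4: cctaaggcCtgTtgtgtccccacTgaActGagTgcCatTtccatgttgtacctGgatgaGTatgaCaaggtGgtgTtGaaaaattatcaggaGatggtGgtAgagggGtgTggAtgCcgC

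The Bmp2 stretch lies on the plus strand at chr2:133561593-133561712 (mm10) in exon 3 of 3, and the Bmp4 stretch on the minus strand at chr14:46383862-46383981 in exon 4 of 4. Over the last 300 coding bases this pair was 79.7% identical without gaps, and Bmp5, Bmp6 and Bmp7 were 77.3% to 80.7% identical to each other. The longest run shared by the coding sequences of Bmp2 and Bmp4 was 15 bases. Among all pairs of the 6 ligands the longest was 25 bases, between Bmp6 (chr13:38485801-38485825, plus strand) and Bmp7 (chr2:172879437-172879461, minus strand), both in exon 4 of 7.

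Bmp6 and Bmp7: cccttcatggtggccttcttcaagg

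Reads of 50 bases that match coding sequence exactly can thus be assigned to 1 ligand among these 6. Overlap with unrelated genes mattered more. In GENCODE M21 the antisense gene Gm26903 covers 46.7% of the exon bases of Bmp5, Txndc5 covers 5.74% of those of Bmp6, Gm15217 covers 3.96% of those of Bmp4 and Thpo covers 3.82% of those of Chrd, each on the opposite strand. Gm26903 had 0 counts in the 7 libraries together, Gm15217 had 18, Thpo had 50 and Txndc5 had 39929. The strand setting is not given in the sources used here, so reads from the shared bases could have been dropped or given to either gene. For Bmp5, no read was given to Gm26903, which had 0 counts. Reads from those shared bases were thus either dropped or counted for Bmp5. Every annotated 50-base stretch of Bmp2, Nog, Bambi and Smad6 was found in no other gene's transcripts.

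**Figure D1:**
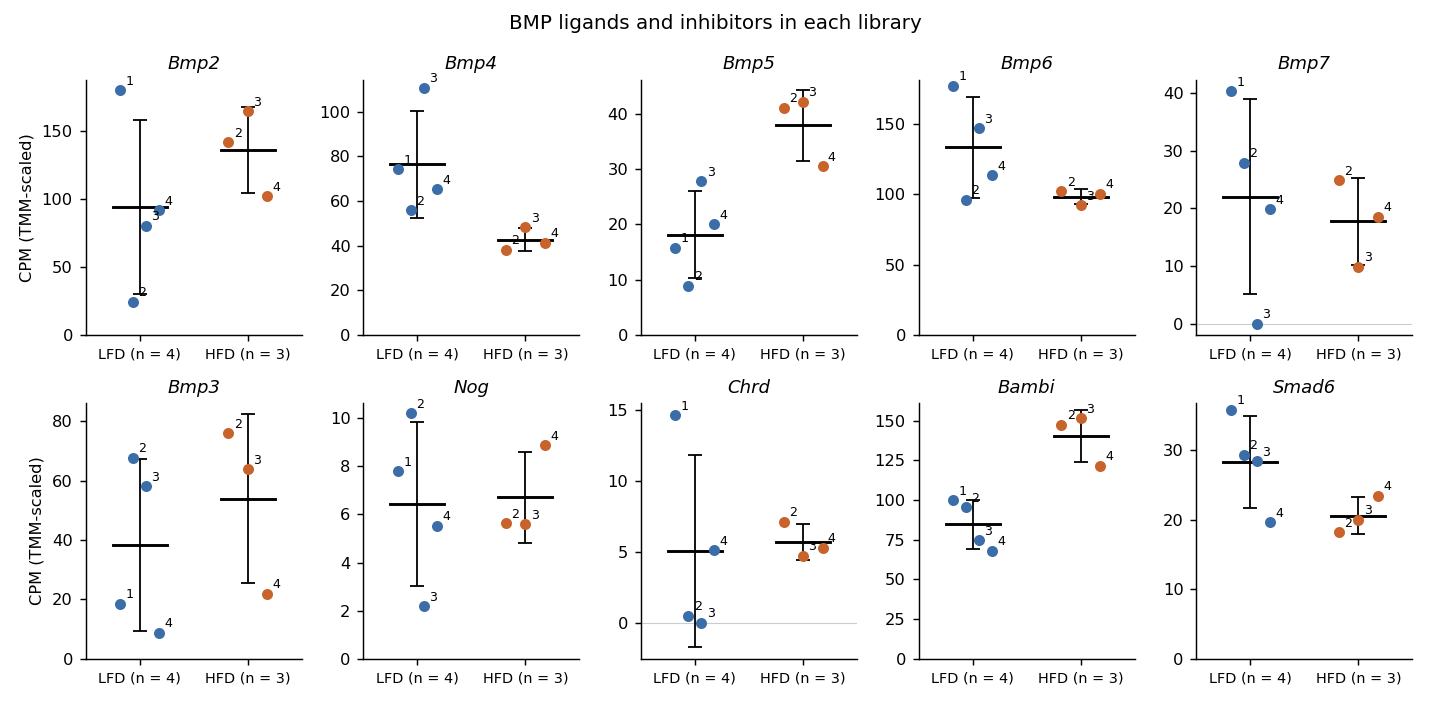
CPM of each of the 10 genes (vertical axes, separate scales) in the 4 LFD libraries (blue) and 3 HFD libraries (orange), with library numbers, group means (bars) and SD (whiskers). The groups do not overlap for Bmp4, Bmp5 and Bambi, and LFD 3 had 0 counts of Bmp7 and Chrd.

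None of the 10 genes passed an adjusted p of 0.05 in edgeR's quasi-likelihood test across all 14304 genes tested, of which 5 (0.035%) passed. Of these 5, 4 were higher in HFD and 1 was lower. When edgeR's p-values were adjusted over 14299 genes, without Xist and 4 Y-linked genes, 0 passed, a setting chosen after seeing the data. The 5 calls thus depended on having the sex-linked transcripts in the adjustment. DESeq2 called 361 genes (2.25% of 16073 with an adjusted p) and limma-voom with quality weights 28 (0.196%), and neither called any of the 10. At an unadjusted p under 0.05 edgeR had 2 of the 10 higher in HFD (Bmp5 and Bambi), where 5.18% of all genes were, and 1 lower (Bmp4), where 2.35% were. For the same 3 genes the values of the diets did not overlap, which held for 8.4% of all genes in the direction of higher values in HFD and 3.47% in the direction of lower values. Of the 10, 6 had a log2 fold change above 0 and 4 below, with a median of 0.11 against 0.02 over all genes. In these bulk samples, fewer cells of a type and less RNA per cell cannot be told apart.

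**Figure D2:**
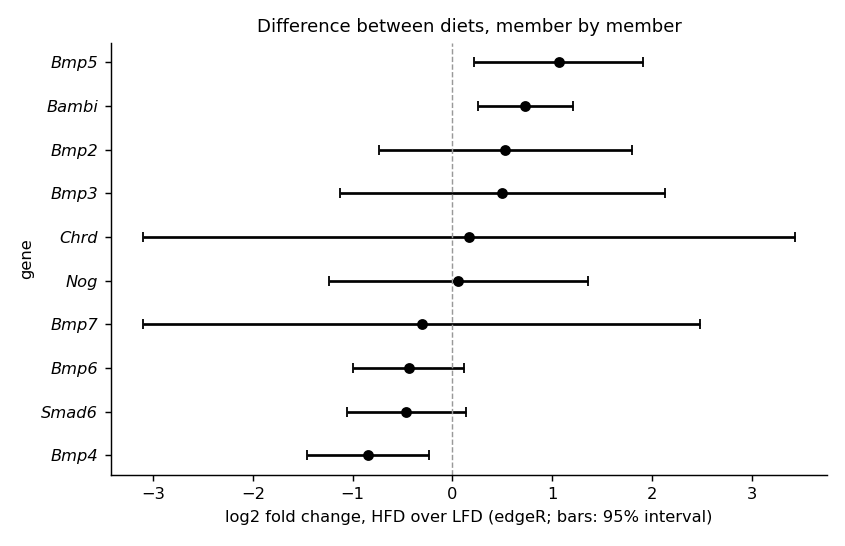
Log2 fold change of HFD over LFD for each gene (points, horizontal axis) with its 95% interval from edgeR (bars), ordered by size. Intervals of Bmp4, Bmp5 and Bambi leave out 0 before adjustment over all genes, and those of Bmp7 and Chrd are the widest.

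Among the ligands of the BMP2/4 branch, Bmp4 was lower and Bmp2 higher on average in HFD. Bmp4 (chromosome 14, 46383520 to 46390669) is a ligand of early mesoderm, limb and skeletal progenitors. It measured 74.3, 55.9, 110.6 and 65.2 CPM in LFD 1 to 4, and 38.2, 48.4 and 41.4 CPM in HFD 2 to 4. Every HFD library lay below the lowest LFD library, LFD 2, and LFD 3 was the highest of all. The means were 76.5 ± 23.96 CPM (SD, n = 4) and 42.7 ± 5.21 CPM (SD, n = 3), a log2 fold change of -0.84 ± 0.26 (SE) with an adjusted p of 0.462. Its size was -0.61 without LFD 3 and -0.67 with the erythroid share of counts in the model.

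Bmp2 (chromosome 2, 133552159 to 133562885) encodes the ligand best known for inducing osteoblasts. It measured 180.1, 24.6, 80.6 and 91.8 CPM in LFD 1 to 4, and 142, 165 and 102 CPM in HFD 2 to 4. LFD libraries held both the highest value, LFD 1, and the lowest, LFD 2, so that the groups overlapped. The means of 94.3 ± 64.3 CPM and 136.3 ± 31.7 CPM gave a log2 fold change of 0.53 ± 0.55 (95% interval -0.74 to 1.798, adjusted p = 0.822). That value was 1.06 without LFD 1 and 0.21 without LFD 2.

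Bmp5 and Bmp6, of the BMP5/6/7 branch, went in opposite directions on average. Bmp5 (chromosome 9, 75775364 to 75900310), the product of the mouse short ear locus and a ligand of cartilage condensations, measured 15.8, 8.96, 27.8 and 20.1 CPM in LFD 1 to 4. In HFD 2 to 4 it measured 41.1, 42.2 and 30.5 CPM, so that each HFD library was above every LFD library, the nearest pair being HFD 4 and LFD 3. Its means were 18.2 ± 7.91 and 37.9 ± 6.45 CPM, with a log2 fold change of 1.06 ± 0.37 (SE), and its adjusted p was 0.535. The value ranged from 0.84 without LFD 2 to 1.35 without LFD 3.

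Bmp6 (chromosome 13, 38345107 to 38500302), which also acts in the liver as the inducer of the iron hormone hepcidin, had the highest mean CPM of the 10 in LFD. It measured 177, 96.0, 147 and 114 CPM in LFD 1 to 4, and 102, 92.1 and 101 CPM in HFD 2 to 4. LFD 2 lay among the HFD values, and the other LFD libraries above them. With means of 133 ± 36.0 and 98.3 ± 5.44 CPM, the log2 fold change was -0.44 (95% interval -0.999 to 0.12), or -0.27 without LFD 1.

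Bmp7 (chromosome 2, 172868012 to 172940321), a ligand of kidney and skeletal patterning, varied within both diets. It measured 40.3, 27.9, 0 and 19.8 CPM in LFD 1 to 4, and 24.9, 9.90 and 18.5 CPM in HFD 2 to 4. The 0 counts in LFD 3 allow up to 0.187 CPM (3 counts, counting error only), although other LFD libraries had 401 to 1034 counts of the gene. The groups overlapped, and the 95% interval of the log2 fold change (-0.31) ran from -3.10 to 2.48. The value was -0.71 without LFD 3 and 0.18 without LFD 1.

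Bmp3 (chromosome 5, 98854415 to 98884396) differs in role from the ligands above, since its product antagonises osteogenic BMPs and is made by bone cells. It measured 18.5, 67.7, 58.1 and 8.80 CPM in LFD 1 to 4, and 76.1, 63.9 and 21.97 CPM in HFD 2 to 4. Within each diet the values split into high and low libraries: LFD 1, LFD 4 and HFD 4 were low, and the others were at least 58.1 CPM. The log2 fold change was 0.50 ± 0.71 (SE). It was 0.17 without LFD 4, 0.16 without HFD 2, 0.28 without LFD 1 and 0.92 without LFD 2, and 1.65 in limma-voom.

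Markers of bone-forming cells took 1.88%, 4.24%, 3.83% and 2.36% of counts in LFD 1 to 4, and 6.22%, 6.91% and 4.17% in HFD 2 to 4. The 3 libraries low in Bmp3 were LFD 1, LFD 4 and HFD 4, of which LFD 1 and LFD 4 also had the lowest shares of this list. HFD 4 had the lowest share in HFD, but its 4.17% was above the 3.83% of LFD 3, where Bmp3 was high (58.1 CPM). Col1a1 and Col1a2, the list's most abundant genes, averaged 13208 and 11935 CPM in LFD and were at 4130 and 4531 CPM in LFD 1. Among the LFD libraries, LFD 1 was also lowest in Bglap, Bglap2, Runx2, Alpl and Phex. It was highest in Ibsp (3313 CPM), Spp1 (3657 CPM) and Dmp1 (271 CPM), so the markers did not move as 1. All 12 markers of the list had counts, 11 of 12 had higher values in HFD, and the part of this share in the Bmp3 values was not tested.

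The secreted antagonists were the least abundant of the 10 and had log2 fold changes smaller than their SE. Nog (noggin, chromosome 11, 89300638 to 89302332), a homodimer that wraps BMP ligands and blocks both receptor contacts, measured 7.80, 10.2, 2.18 and 5.54 CPM in LFD 1 to 4. In HFD 2 to 4 the values of 5.63, 5.60 and 8.89 CPM lay inside that range. Its log2 fold change was 0.06 (95% interval -1.23 to 1.35), and ran from -0.23 without LFD 3 to 0.37 without LFD 2.

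Chrd (chordin, chromosome 16, 20733127 to 20742384) binds BMPs until tolloid proteases cut it. It had 376, 8, 0 and 104 counts in LFD 1 to 4, or 14.7, 0.501, 0 and 5.14 CPM. In HFD 2 to 4 it had 204, 98 and 111 counts, or 7.13, 4.73 and 5.30 CPM. The LFD libraries thus reached from 0 counts, which allow up to 0.187 CPM, to more than any HFD library. The interval of the log2 fold change (0.17) was the widest of the 10, from -3.10 to 3.43. It was 1.61 without LFD 1 and -0.24 without LFD 3.

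Of the inhibitors inside or on the receiving cell, Bambi was higher and Smad6 lower on average in HFD. Bambi (chromosome 18, 3507923 to 3516404) encodes a transmembrane protein that resembles a type I receptor without the kinase domain. It measured 99.96, 95.7, 74.9 and 68.2 CPM in LFD 1 to 4, and 148, 152 and 122 CPM in HFD 2 to 4. The lowest HFD library, HFD 4, was above the highest LFD library, LFD 1. With means of 84.7 ± 15.5 CPM (SD, n = 4) and 140.2 ± 16.3 CPM (SD, n = 3), the log2 fold change was 0.73 ± 0.21 (SE). Bambi had the smallest adjusted p of the 10, at 0.383 in edgeR, 0.0676 in DESeq2 and 0.0713 in limma-voom. Its log2 fold change stayed between 0.60 and 0.92 over 18 alternatives, with 0.60 when the erythroid share was in the model.

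Smad6 (chromosome 9, 63953076 to 64022059) encodes an inhibitory SMAD that blocks activated BMP receptors and competes with SMAD4, and BMP signalling itself induces the gene. It measured 35.8, 29.3, 28.4 and 19.7 CPM in LFD 1 to 4, and 18.2, 19.997 and 23.5 CPM in HFD 2 to 4. LFD 4 lay among the HFD libraries, and LFD 1 to 3 lay above all of them. The log2 fold change was -0.46 ± 0.26 (SE), and the interval of -1.06 to 0.14 included 0. Bambi and Smad6, both classed as feedback inhibitors, therefore had fold changes of opposite sign.

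Promoter sequence was in RefSeq's table (GRCm38.p6, the mm10 assembly) for 5 of the 10 genes: Bmp4, Bmp5, Bmp6, Chrd and Smad6. Each window of 300 bases runs from 250 bases before the start of transcription to 50 after it. They were searched on both strands for GTCTAGAC (the palindromic SMAD binding element), GGCGCC (a GC-rich element bound by BMP SMADs) and CAGAC (the short SMAD box), whose matches did not overlap each other. The Smad6 window is shown because it held the 8-base palindrome, in capitals, which 0.22% of 32544 promoter windows hold. The window lies on the minus strand at chr9:64022010-64022309, and the match at chr9:64022056-64022063 spans the start of transcription.

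Smad6: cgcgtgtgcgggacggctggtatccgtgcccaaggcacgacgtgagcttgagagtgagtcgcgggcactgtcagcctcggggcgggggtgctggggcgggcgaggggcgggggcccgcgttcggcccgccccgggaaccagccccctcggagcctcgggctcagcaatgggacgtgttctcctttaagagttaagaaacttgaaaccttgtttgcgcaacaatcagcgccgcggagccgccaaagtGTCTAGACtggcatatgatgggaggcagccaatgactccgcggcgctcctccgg

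The Chrd window held 1 GGCGCC match, found in 11.94% of all windows, and 1 CAGAC match. The windows of Bmp5 and Bmp6 held 1 CAGAC match each, which 49.5% of all windows share, and that of Bmp4 held none of the 3 motifs. Such a match describes the letters in the window only, and binding was not measured.

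To compare genes with each other, CPM were divided by exon length. In LFD, Bmp6 (34.2 ± 9.22 CPM per kb), Bmp4 (34.0 ± 10.7) and Bmp2 (26.5 ± 18.1) were highest and did not differ beyond their spread. Bambi followed at 16.7 ± 3.06 CPM per kb, within the spread of Bmp2 but above Smad6 (8.83 ± 2.07) in 4 of 4 libraries. Bmp7, Bmp3, Bmp5 and Nog had mean levels per kb from 5.48 down to 3.79, and no neighbours among them were separated by more than the larger SD. Chrd was lowest at 0.811 ± 1.09 CPM per kb, below Nog in 4 of 4 libraries.

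In HFD the order of levels per kb was led by Bmp2 (38.3 ± 8.92 CPM per kb), which was above Bambi (27.6 ± 3.20) in 3 of 3 libraries. Bambi and Bmp6 (25.2 ± 1.40) did not differ beyond their spread. Bmp4 (19.0 ± 2.32) was below Bmp6 and, with all exon bases as the length, above Bmp5 (9.43 ± 1.602) in 3 of 3 libraries. Bmp5, Bmp3 (7.30 ± 3.84) and Smad6 (6.41 ± 0.831) were neighbours within their spread, Bmp7 was below Smad6 in 2 of 3 libraries, Nog followed, and Chrd was again last at 0.915 ± 0.200 CPM per kb. Dividing the same CPM by only the exon bases that no other gene shares gave Bmp5 8.46 CPM per kb in LFD and 17.7 in HFD, an upper value that holds if no read from the shared bases was counted for Bmp5.

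**Figure D3:**
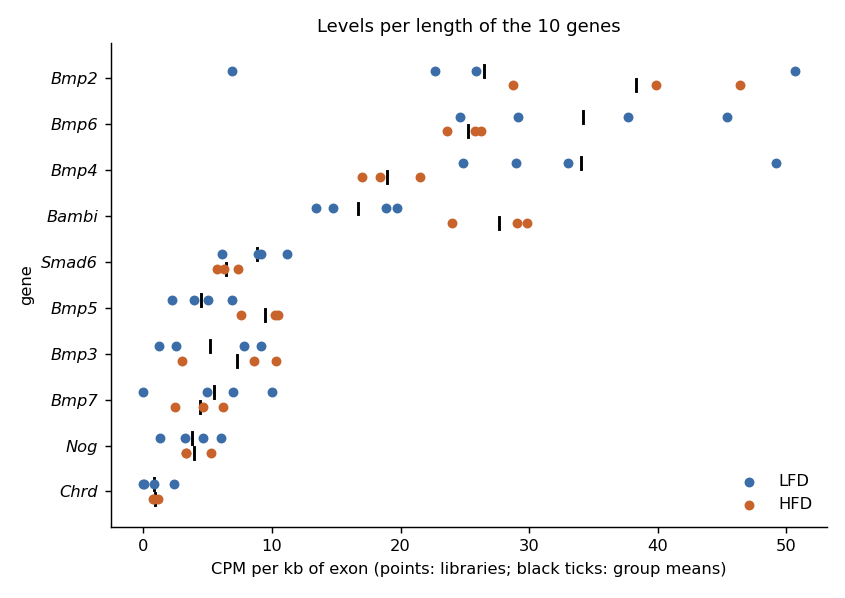
CPM per kb of exon (horizontal axis) for each gene in LFD (blue) and HFD (orange) libraries, with group means as black ticks. Bmp6, Bmp4 and Bmp2 lead in LFD, Bmp2 and Bambi lead in HFD, and the mean of Chrd is lowest in both diets.

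The 5 activating ligands together had 104.7 ± 33.0 CPM per kb in LFD and 96.4 ± 10.1 CPM per kb in HFD, a difference within the spread of the LFD libraries. The sum overlapped between the diets, as did the shares of Bmp2 and Bmp7 in it, while those of Bmp4, Bmp5 and Bmp6 did not. Shares of a sum depend on each other, and the difference in make-up was not tested. Bmp2 made up 35.4%, 10.6%, 19.5% and 27.5% of the sum in LFD 1 to 4, and 40.1%, 44.4% and 33.8% in HFD 2 to 4, with LFD 1 above HFD 4. Bmp4 made up 23.1%, 37.9%, 42.3% and 30.9% in LFD, and 17.1%, 20.6% and 21.6% in HFD, where each library was below every LFD library. Bmp5 had 2.74% to 5.94% in LFD and 8.91% to 10.3% in HFD, also without overlap. Bmp6 made up 31.7%, 37.5%, 32.3% and 31.01% in LFD 1 to 4, and 26.4%, 22.6% and 30.3% in HFD 2 to 4, each HFD library again lower. Bmp7 took 0% to 10.6% in LFD and 2.36% to 6.23% in HFD. The shares depend on the length used for Bmp5: divided by only the exon bases that no other gene shares, it made up 4.87% to 10.2% in LFD and 15.1% to 17.3% in HFD, and the shares of Bmp4, Bmp5 and Bmp6 again did not overlap.

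Within each library, the level of Bmp2 per kb was 1.53, 0.279, 0.460 and 0.891 times that of Bmp4 in LFD 1 to 4, and 2.35, 2.15 and 1.56 times in HFD 2 to 4. Bmp4 thus exceeded Bmp2 in 3 of 4 LFD libraries and in 0 of 3 HFD libraries. LFD 1 (1.53) and HFD 4 (1.56) were nearly equal. This ratio was chosen after the values were seen and was not tested.

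**Figure D4:**
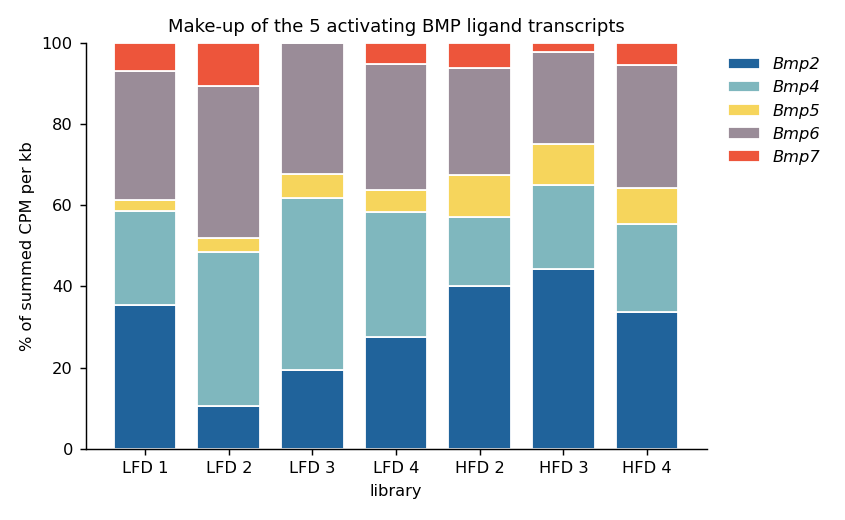
Share of Bmp2, Bmp4, Bmp5, Bmp6 and Bmp7 in their summed CPM per kb (vertical axis, %) in each library (horizontal axis). Bmp4 takes 17.1% to 21.6% in the HFD libraries and 23.1% to 42.3% in the LFD libraries, and Bmp5, divided here by its full exon length, takes 2.74% to 5.94% in LFD and 8.91% to 10.3% in HFD.

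All 10 genes varied less among the HFD than among the LFD libraries. The coefficient of variation of CPM had a median of 48.3% in LFD and 19.5% in HFD. Over 14255 genes with counts in both diets it was lower in HFD for 68.4%, with medians of 39.7% and 27.4%. The groups differ in number, 4 against 3, and the difference in spread was not tested.

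The remaining pathway was read from 72 listed genes, of which 61 were tested, 39 with higher and 22 with lower values in HFD (63.9% higher, against 51.5% of all genes tested). None passed edgeR's adjusted threshold, DESeq2's or limma-voom's, and 7 were higher and 1 lower at an unadjusted p under 0.05, where 5.18% and 2.35% of all genes were. Among 8 other ligands tested, Bmp8a, for a ligand of germ cells, measured 10.8, 13.03, 6.29 and 20.4 CPM in LFD 1 to 4. Its values in HFD 2 to 4 were 30.04, 41.4 and 23.6 CPM, without overlap (log2 fold change 1.33, adjusted p = 0.435). Inhbb, the activin B subunit, had a log2 fold change of -0.87, and Bmp15, an oocyte ligand, stayed at or below 2.01 CPM in every library.

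Receptors showed no common direction, with 5 of the 13 that were tested higher and -0.16 as their median log2 fold change. The type I receptor Bmpr1a averaged 70.7 ± 17.7 CPM in LFD against 86.4 ± 9.02 CPM in HFD, and the type II receptor Bmpr2 7.74 ± 4.51 and 12.6 ± 1.33 CPM. The co-receptor Neo1 (neogenin, which binds repulsive guidance molecules) had 80.6 to 112 CPM in LFD against 118 to 164 CPM in HFD, with a log2 fold change of 0.55 and an adjusted p of 0.598. Acvrl1 (ALK1, the receptor for BMP9 and BMP10 on endothelium) had a log2 fold change of 1.42 with overlapping groups. Acvr1b, the activin type I receptor, was low, at 0.906 ± 0.982 and 0.168 ± 0.148 CPM.

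Other secreted antagonists and modulators had higher values in HFD in 13 of the 16 that were tested, and their log2 fold changes had a median of 0.42. Bmp1, which despite its name is a tolloid protease that cuts chordin and procollagens, measured 85.2, 98.8, 99.04 and 78.9 CPM in LFD 1 to 4, and 136, 171 and 123 CPM in HFD 2 to 4. Its groups did not overlap (log2 fold change 0.66 ± 0.19, adjusted p = 0.409). Bmper (crossveinless 2), a modulator that binds BMPs and chordin, measured 1.603 ± 1.70 and 10.6 ± 2.83 CPM, also without overlap. The antagonist Grem1 (gremlin) measured 2.55 to 12.01 CPM in LFD against 15.6 to 26.1 CPM in HFD, with an adjusted p of 0.658.

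Of 12 SMAD proteins and regulators tested, 8 had higher values (median log2 fold change 0.21). Smad1, a receptor-activated SMAD, measured 18.9 ± 8.82 and 33.7 ± 8.55 CPM with overlap. The ubiquitin ligase Smurf1, which marks SMAD1 for breakdown, measured 12.5 ± 7.02 and 25.4 ± 5.61 CPM without overlap, and Stub1, another ubiquitin ligase, 31.1 ± 2.75 and 24.7 ± 1.39 CPM.

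Transcriptional targets gave 8 of 12 with higher values and a median log2 fold change of 0.08. Runx2 and Sp7 of this list are also on the list of markers of bone-forming cells. Id1, a direct target, had a log2 fold change of 0.08 ± 0.33, Id2 -0.04 ± 0.41 and Id3 -0.19 ± 0.27, and the groups overlapped for all 3. Atoh8, a SMAD target in endothelium and cartilage, measured 40.9, 19.9, 51.1 and 25.1 CPM in LFD 1 to 4 against 13.3, 12.03 and 17.3 CPM in HFD 2 to 4 (log2 fold change -1.27 ± 0.37, adjusted p = 0.409). Id4 went the other way, with 8.66 ± 4.86 and 18.2 ± 3.89 CPM, and Msx2, a homeobox gene of skull and limb, measured at most 0.507 CPM in LFD and 0.966 to 2.63 CPM in HFD.

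**Figure D5:**
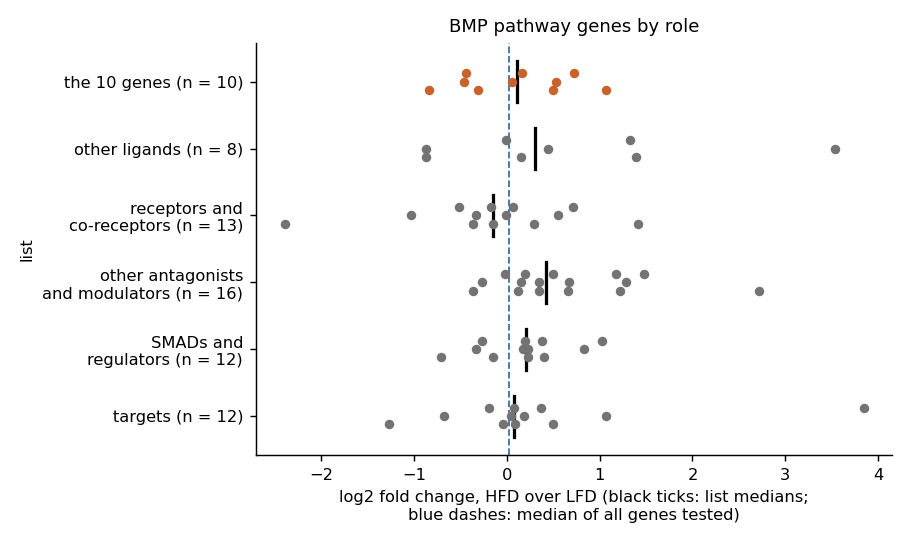
Log2 fold changes of HFD over LFD (horizontal axis) for the 10 genes (orange) and the tested members of 5 lists of pathway genes (grey), with list medians as black ticks and the median of all genes tested (0.02) as a dashed line. The points of each list lie on both sides of 0.

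Profiles over the 7 libraries were compared with 8990 other genes of at least 8 CPM, by the root mean square difference of centred log2 CPM. The nearest profiles to Bambi were those of Furin, Zfp652 and Mprip (0.10 to 0.14, where the median gene was 0.58 away). The 3 smallest of 8990 distances lie below the median for any gene, and whether these are unusually small was not tested. Bmp4 was nearest to Tab2, Tcirg1 and Ocel1 (0.11 to 0.12), and Bmp5 to Elmo1, Atrn and Pkn3 (0.18 to 0.24). For Bmp2 the nearest genes were Cped1, Rassf3 and Rora, for Bmp6 they were Rpl27a, Ctdsp2 and Cnn3, and for Smad6 Rpl10a, Mrps30 and Arglu1. Bmp3 lay nearest to Adgrd1, Abca1 and Ccdc194 at 0.39 to 0.47. Bmp7, which had 0 counts in LFD 3, was 0.48 to 0.52 from Gpam, Erlin1 and Usp38. Nog and Chrd had means under 8 CPM and were not compared, and none of the other 8 was among the 3 nearest profiles of another.

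Markers of some other cell types differed between the diets beside these values, with overlapping shares for the erythroid and chondrocyte lists. The shares of the B lineage, T and NK, megakaryocyte, pericyte and smooth muscle, Schwann, and fibroblast and periosteal lists overlapped too. The 12 erythroid markers took 10.4% to 14.8% of counts in LFD and 2.69% to 10.8% in HFD, with 0 of 12 higher in HFD. The 8 marrow stromal markers took 0.0177% to 0.0402% in LFD and 0.150% to 0.311% in HFD, with 8 of 8 higher and Cxcl12 most abundant. Granulocyte markers took 0.106% to 0.562% and 1.06% to 1.69% (12 of 12 higher), and monocyte and macrophage markers 0.0525% to 0.105% and 0.226% to 0.236% (10 of 12 higher). The 10 endothelial markers were low, at 0.00319% to 0.00556% and 0.00186% to 0.00253% (1 of 6 tested higher). Muscle markers took 0.0222% to 0.0521% in LFD and 0.0137% to 0.0163% in HFD (1 of 6 tested higher). Without overlap in the other direction were osteoclast markers, at 0.01497% to 0.0401% and 0.0578% to 0.113% (2 of 4 tested higher). Their most abundant gene, Mmp9, is also on the granulocyte list and averaged 83.8 CPM in LFD and 591 CPM in HFD. Ctsk was higher too (44.5 and 90.2 CPM), while Acp5 (114 and 86.2 CPM) and Calcr (32.3 and 21.3 CPM) were lower. Adipocyte markers also did not overlap, at 0.00146% to 0.00392% and 0.00523% to 0.00880% (3 of 4 tested higher). Chondrocyte markers took 2.73% to 5.05% and 3.94% to 7.78%, with 12 of 13 higher. Except for 1 marker each of the muscle, osteoclast and adipocyte lists, all markers of the 9 lists given with their shares had counts. None of these markers passed edgeR's adjusted threshold, and their part in the values of Bmp4, Bmp5 and Bambi was not tested. With the erythroid share in the model, the log2 fold changes were -0.67 for Bmp4, 0.98 for Bmp5 and 0.60 for Bambi. Of the 3 only Bambi kept an unadjusted p under 0.05 in edgeR, barely, at 0.04997 (adjusted p = 0.9998). Over the 18 alternatives an unadjusted p under 0.05 was kept in 18 for Bambi, in 16 for Bmp4 and in 14 for Bmp5, which lost it also with the replicate block and without HFD 2 or HFD 3.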

How the data were processed

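RNA was measured in 7 libraries of sorted mouse femur cells, 4 LFD and 3 HFD. Per the labels' protocols, column-extracted RNA was copied with SMART-Seq v4, made into Nextera XT libraries and sequenced in pairs of 50 bases. The deposited values are raw counts per Ensembl gene. STAR 2.5.2b, HTSeq 0.11.2, cutadapt, bcl2fastq 2.20 and DESeq2 1.26.0, with the build mm10, are listed in the submitters' processing notes without order. Not given in the sources used here were the strand setting, annotation release and handling of multiple mapping.

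Of 42687 identifiers, 42250 had a symbol. Identifiers without one stayed in the totals (at most 0.0216% of a library). Titles gave each library's diet. Since no label ties libraries to separate animals, p-values reflect only how far these samples spread, which may be technical. Every pair of libraries differed by more than sampling noise (chi-square of at least 53.8 per degree of freedom). The reads carry no molecular identifiers, and floors cover only counting error.

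For the comparison, edgeR 4.0.16 (R 4.3.3) ran its quasi-likelihood test with diet as the sole term, robust fitting, TMM and filterByExpr, and Benjamini-Hochberg adjustment over all 14304 genes. Alternatives used DESeq2 1.42.0, limma 3.58.1 (voom), sva 3.50.0, other normalizations, filters and covariates, and each library left out. Exon lengths, coordinates and overlaps came from GENCODE M21 (mm10), promoters from RefSeq. Members, lists and rules were chosen with earlier results of these data known. The rule for named genes took all 10 members, the 3 genes of smallest p in each pathway list and the 3 nearest profiles per member above 8 CPM. Bmpr1a, Bmpr2, Id1, Id2 and Id3 were added after their values were seen. Hjv was matched as Hfe2, its name in the reference, and had 0 counts.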

Additional observations from a re-analysis of the deposited data

How the results depend on the processing

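None of the 10 genes and none of the 61 other pathway genes tested was called under any of the 20 alternatives. The number called among all genes, 5, was 8 with no filter beyond 1 count, 0 with a stricter filter of 10 counts in 4 libraries, 1 with the erythroid share as covariate, 2 with 1 surrogate variable, 361 with DESeq2, 28 with limma-voom, 10 at an adjusted p under 0.1 and 1 to 6 with single libraries left out. It was 0 when Xist and the 4 Y-linked genes were left out of the adjustment, an alternative chosen after seeing the data. Over 18 alternatives Bmp2, Bmp4, Bmp5, Bmp6, Bmp3, Bambi and Smad6 kept the sign of their log2 fold change. Its range was 0.05 to 1.22 for Bmp2, -0.97 to -0.59 for Bmp4, 0.84 to 1.35 for Bmp5, -0.58 to -0.25 for Bmp6, 0.04 to 1.65 for Bmp3 and -0.60 to -0.23 for Smad6. Bmp7 turned positive with limma-voom (0.23) and the replicate block (1.20), was -1.07 with the surrogate variable and -0.86 with the erythroid share, and ranged from -0.71 to 0.18 with single libraries left out. Nog turned with 1 surrogate variable (-0.048) and ranged from -0.23 to 0.37 with libraries left out. Chrd turned with the erythroid share (-0.46) and the surrogate variable (-0.47), was 3.42 with the replicate block and 1.22 with limma-voom, and ranged from -0.24 to 1.61 with libraries left out. The cause of these turns was not tested.

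The titles number the libraries, and numbers 2 to 4 occur in both diets. Deviations from the group mean correlated over genes at -0.10, 0.03 and -0.06 for same-numbered libraries, and at -0.17 to 0.19 for differently numbered ones. With groups this small, these values cannot tell whether same-numbered samples share more than a number. With the replicate block, which sets LFD 1 aside, 0 genes were called. Levels and ligand shares were also computed with other lengths. Per kb, the longest transcript in place of all exons gave 27.4 for Bmp6 and 1.30 for Chrd in HFD, and exon bases shared with no other gene, a setting chosen after seeing the data, gave 26.7 for Bmp6 in HFD. Values under about 1 CPM, such as Chrd in LFD 2, rest on few counts.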
